A study of Mus musculus with 18 samples.

Results

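The 32 genes described here are transcripts of the cell division cycle, chosen by symbol and sorted by role into 18 mitotic genes and 14 genes of S phase, the phase in which DNA is copied. All 32 were among the 51435 genes of the deposited tables and among the 24804 genes that entered the test of genotype. The libraries are poly(A)-selected left ventricular RNA of 18 mice on a C57BL/6J background, 9 WT and 9 WWP2Mut/Mut. WWP2Mut/Mut mice are homozygous for a small frame-shifting deletion, made with CRISPR/Cas9 in an early coding exon of Wwp2, a gene for a HECT-type E3 ubiquitin ligase, which removes the full-length and N-terminal protein isoforms and is not expected to remove the C-terminal one, and the WT mice were littermates. Mice of both genotypes received angiotensin II (AngII), a hormone that raises blood pressure and causes hypertrophy and fibrosis of the heart, at 500 ng/kg/min for 28 days from 8 weeks of age, so the data hold no untreated group and the only comparison is that of genotype under AngII. The mutation is present in every cell of the animal, and the ventricle was sequenced whole, so the cell types that contributed these transcripts were not separated.

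A dividing cell first licenses its replication origins and makes nucleotides in G1 and S phase, under E2F transcription factors that are held back by pocket proteins of the retinoblastoma family, and later makes the kinases, cyclins, spindle motors and kinetochore proteins of G2 and mitosis. Genes of the later wave commonly carry a CHR element and CCAAT boxes before their transcription start and are kept silent in resting cells by the DREAM complex. Adult cardiomyocytes rarely divide, and in a ventricle under AngII the dividing cells are chiefly fibroblasts, endothelial cells and leukocytes, so these transcripts are scarce in whole tissue. In bulk RNA, fewer cells of a dividing type and less RNA per cell cannot be told apart.

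The library totals were 24566994 to 37451087 counts. Wwp2, the targeted gene, had 3.83 to 6.01 TPM (transcripts per 1000000, a level corrected for gene length) in WT mice and 1.19 to 3.00 TPM in WWP2Mut/Mut mice, with no overlap. Liver transcripts, which a ventricle should lack, were present in some libraries. The TPM sum of 8 liver markers ran from 4.59 through a median of 69.7 to 310 in WT mice and from 4.77 through 19.1 to 55.8 in WWP2Mut/Mut mice, and all 8 markers were lower in WWP2Mut/Mut mice at an unadjusted p below 0.05 (edgeR, median log2 fold change -1.85). The sums were highest in the WT mice 45-1 and 16-1, at 310 and 135.5 TPM. These 2 mice also had the lowest mitotic levels of all mice, at 0.489 and 0.651. The class medians, the leading genes, the class levels, the lanes and the 6 tested correlations are therefore also given without these 2 mice. The next highest sum, 98.2 TPM, was in the WT mouse 25-3.

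In length-corrected level the S-phase genes lay above the mitotic ones. The mean TPM over the 18 mice had a class median of 1.56 for the S-phase genes and 0.448 for the mitotic genes, and it was below 1 TPM for 14 of 18 mitotic and 4 of 14 S-phase genes. The most abundant of all was a mitotic gene, Cenpa, the histone variant that marks centromeres, with 18.8 to 32.6 TPM. Pcna, the sliding clamp of the replication fork, followed with 10.3 to 22.3 TPM, and Cenpa exceeded Pcna in 18 of 18 mice although their ranges overlapped. Pcna in turn lay above every mouse's value of Rrm1, the large subunit of ribonucleotide reductase, which had 3.33 to 6.30 TPM. That was the only step in the order of the 32 levels at which neighbouring ranges were apart. Below it the order ran from Mcm7 (mean 3.25 TPM) through Mcm3 (2.72), Mcm6 (2.54), Tyms (2.39), Cdk1 (1.91) and Tk1 (1.63) down to Cdc6 (0.193), Cenpe (0.191) and Bub1 (0.135), with overlapping ranges between all neighbours. The mitotic genes therefore rested on few reads, with a median of 42.0 counts per gene and mouse and a lowest value of 4, against a median of 159 and a lowest value of 4 for the S-phase genes. No member was at 0 counts in any mouse.

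Promoter sequences from RefSeq (build GRCm38.p6) held entries for 28 of the 32 genes, 16 mitotic and 12 S-phase. Both strands of the 250 bases before each start were searched for the CHR element (TTTGAA or TTCGAA), the CCAAT box (CCAAT) and the E2F site (TTT, then 2 letters each C or G, then CGC). The CHR element was found in 8 of 16 mitotic genes (50%), 2 of 12 S-phase genes (16.7%) and 17.4% of 27025 promoters of the same length. The CCAAT box was found in 14 of 16 mitotic genes (87.5%), 8 of 12 S-phase genes (66.7%) and 34.5% of all promoters. The E2F site was found in 1 of 16 mitotic genes (6.25%), 4 of 12 S-phase genes (33.3%) and 1.91% of all promoters. Both the CHR element and the CCAAT box were present in 50% of the mitotic genes, 16.7% of the S-phase genes and 6.21% of all promoters. A match is a description of letters, and its absence says only that these letters are not in the window. The 120 bases before the start are shown 5′ to 3′ on the gene's strand, with the letters of these motifs in capitals, for the 4 mitotic genes with an entry and the smallest p for genotype, for Cdk1, whose 250 bases hold all the motifs, and for Mcm6 and Pcna as an E2F-bearing and an abundant S-phase gene. The start is that of the RefSeq table, while gene coordinates elsewhere are the outer bounds of the GENCODE M21 gene, so the stretch of Pcna lies within those bounds and those of Ccnb1, Ube2c and Cdk1 partly do. In Mcm6 the first capital run joins 2 overlapping E2F matches, one on each strand.
Ube2c (chr2:164769809-164769928, plus strand): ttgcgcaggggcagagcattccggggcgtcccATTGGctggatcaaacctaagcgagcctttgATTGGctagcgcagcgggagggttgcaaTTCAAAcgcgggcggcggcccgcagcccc
Ccnb2 (chr9:70421555-70421674, minus strand): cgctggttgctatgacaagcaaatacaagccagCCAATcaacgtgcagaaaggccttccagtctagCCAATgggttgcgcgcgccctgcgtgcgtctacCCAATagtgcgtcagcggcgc
Ccnb1 (chr13:100786487-100786606, minus strand): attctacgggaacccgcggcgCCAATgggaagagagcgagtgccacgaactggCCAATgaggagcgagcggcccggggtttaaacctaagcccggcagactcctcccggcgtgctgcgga
Plk1 (chr7:122159315-122159434, plus strand): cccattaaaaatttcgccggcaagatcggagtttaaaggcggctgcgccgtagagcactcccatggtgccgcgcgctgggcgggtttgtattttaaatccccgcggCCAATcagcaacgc
Cdk1 (chr10:69352913-69353032, minus strand): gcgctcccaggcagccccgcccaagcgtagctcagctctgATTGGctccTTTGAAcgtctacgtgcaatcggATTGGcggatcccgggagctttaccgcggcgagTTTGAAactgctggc
Mcm6 (chr1:128359706-128359825, minus strand): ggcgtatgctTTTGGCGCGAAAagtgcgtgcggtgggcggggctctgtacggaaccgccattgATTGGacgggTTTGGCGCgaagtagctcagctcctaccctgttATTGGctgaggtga
Pcna (chr2:132253181-132253300, minus strand): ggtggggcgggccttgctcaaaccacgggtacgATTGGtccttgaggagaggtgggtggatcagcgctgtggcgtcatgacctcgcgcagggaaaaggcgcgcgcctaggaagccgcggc

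Within the printed stretch, Cdk1 had CHR matches 71 and 15 bases before its start and CCAAT matches on the other strand 80 and 48 bases before it. Within its own stretch, Ube2c had its CHR match on the other strand 29 bases before the start, below 2 CCAAT matches at 88 and 57 bases. Both genes had further CCAAT matches farther from the start. The CHR match of Ccnb2 lay 167 bases before the start, outside the printed stretch. The median log2 fold change was 0.51 for the 8 mitotic genes with a CHR match and 0.46 for the 8 without one, with ranges of 0.31 to 0.87 and 0.13 to 0.84.

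Under AngII, all 18 mitotic genes had a higher fitted level in WWP2Mut/Mut than in WT mice, by a median log2 fold change of 0.50, while the 14 S-phase genes had a median of 0.09. The differences of the mitotic genes ran from 0.13 for Nusap1 to 0.99 for Aurkb, and 16 of 18 lay above 0.25. Those of the S-phase genes ran from -0.09 for Pcna to 0.48 for Tk1, 12 of 14 were above 0, and 2 lay above 0.25. Without the WT mice 45-1 and 16-1 the medians were 0.24 and -0.02. Over all 24804 genes tested the median was -0.01, 48.1% lay above 0 and 18.8% above 0.25. No gene of either class was called at a false discovery rate (FDR) below 0.05 by the quasi-likelihood test of edgeR, fitted with lane and RNA concentration, and that fit called 0.00403% of all genes, which is Wwp2 alone. At an unadjusted p below 0.05, 5 mitotic genes and 0 S-phase genes were higher in WWP2Mut/Mut mice and none was lower, where 1.09% of all genes were higher and 2.57% lower. DESeq2 gave 7 mitotic genes and 0 S-phase genes at an unadjusted p below 0.05 (2.47% of all genes) and none at an adjusted p below 0.05 (0.0161% of all genes). In edgeR, 1 S-phase gene passed the unadjusted threshold in some other fits. With the RNA concentration of the WT mouse 43-3 replaced, 6 mitotic genes and 1 S-phase gene did (4.12% of all genes). With RNA concentration as the only covariate, 5 and 1 did (5.68%). It was also 1 S-phase gene without the WT mouse 67-1 or 94-2 or the WWP2Mut/Mut mouse 22-3 or 33-1 (3.47% to 4.61%).

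**Figure D1:**
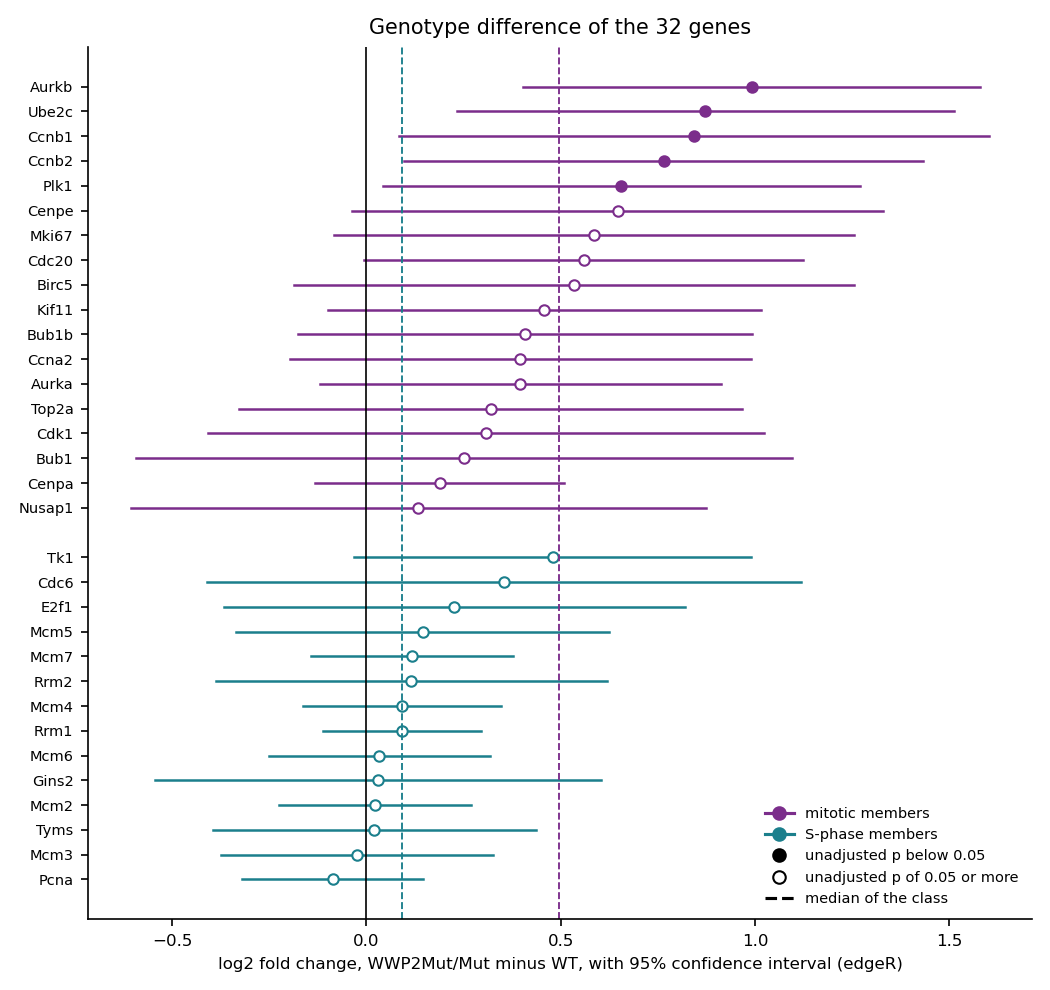
Log2 fold change, WWP2Mut/Mut minus WT, of the 18 mitotic (purple) and 14 S-phase (teal) genes, with the 95% confidence interval from edgeR as a horizontal line. Filled points have an unadjusted p below 0.05, and dashed lines are the class medians of 0.50 and 0.09. All purple points lie right of 0, and 13 of their intervals cross it.

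Among the kinases and cyclins, Aurkb had the largest difference of the 32 genes in the count fit with lane, RNA concentration and all mice. Ccnb1 lay above Aurkb with no covariates (0.86 and 0.81) and with lane alone (0.87 and 0.83). Ube2c lay above Aurkb without the WT mice 45-1 and 16-1 (0.71 and 0.69) and on log2(TPM + 1) (0.37 and 0.18). Aurkb, the kinase of the chromosomal passenger complex that corrects chromosome attachment, lies at chr11:69045647-69051664 (GRCm38). Its normalized count ran from 0.315 through a median of 0.648 to 1.06 counts per 1000000 (CPM, scaled by TMM) in WT mice and from 0.858 through 0.987 to 1.54 in WWP2Mut/Mut mice. Of the 9 WT mice, 8 lay below every WWP2Mut/Mut mouse, and the remaining 1, the WT mouse 94-2, lay among them. The difference was 1.99-fold (95% confidence interval 1.32 to 2.99), or 0.99 ± 0.280 on the log2 scale (standard error, SE; unadjusted p = 0.00223, adjusted p = 0.858 by edgeR after Benjamini-Hochberg correction). Without the WT mice 45-1 and 16-1 it was 0.69 (unadjusted p = 0.0224). Plk1, the polo-like kinase that drives entry into and passage through mitosis, lies at chr7:122159439-122169873 and ran from 0.333 through 0.573 to 1.42 CPM in WT and from 0.616 through 1.02 to 1.30 CPM in WWP2Mut/Mut mice. All 9 WWP2Mut/Mut mice exceeded the WT median, but the WT mouse 94-2 had the highest value of all 18, and the fitted difference was 0.66 (SE 0.292, unadjusted p = 0.0366, adjusted p = 1.00), and 0.57 without the WT mice 45-1 and 16-1 (unadjusted p = 0.113). Aurka, the kinase of the spindle poles, had 0.886 CPM in the median WT mouse and 1.23 CPM in the median WWP2Mut/Mut mouse, a difference of 0.40 on the log2 scale (SE 0.246, unadjusted p = 0.123).

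The B-type cyclins, which activate Cdk1 at the entry to mitosis, had larger fitted differences than their partner kinase, but the intervals overlapped and the difference between the genes was not tested. Ccnb1 (chr13:100778650-100786570) ran from 0.216 through 0.585 to 0.976 CPM in WT and from 0.539 through 0.998 to 1.56 CPM in WWP2Mut/Mut mice. Its groups overlapped, with 5 WWP2Mut/Mut mice above every WT mouse and 4 WT mice below every WWP2Mut/Mut mouse, and the fitted log2 difference was 0.84 (SE 0.362, unadjusted p = 0.0305, adjusted p = 1.00). Ccnb2 (chr9:70407692-70421547) ran from 0.512 through 0.913 to 1.74 CPM in WT and from 0.616 through 1.72 to 2.57 CPM in WWP2Mut/Mut mice, and 4 WWP2Mut/Mut mice lay above every WT mouse. The fitted difference was 0.76 (SE 0.318, unadjusted p = 0.0264, adjusted p = 1.00). Ccna2, the A-type cyclin of S phase and G2, had a log2 fold change of 0.40 (unadjusted p = 0.178), from a median of 1.88 CPM in WT to 2.74 CPM in WWP2Mut/Mut mice. With single mice left out, the fold change of Ccna2 ran from 0.20, without the WT mouse 45-1, to 0.59. Cdk1 itself had medians of 1.85 and 2.76 CPM and a log2 fold change of 0.31 with an interval from -0.41 to 1.02. Without the WT mice 45-1 and 16-1, the differences of Ccnb1 and Ccnb2 were 0.43 and 0.54 and that of Cdk1 was -0.09.

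Of the genes that act on exit from mitosis, Ube2c came first. Ube2c (chr2:164769898-164778822), the E2 enzyme of the anaphase-promoting complex, ran from 0.459 through 0.964 to 1.74 CPM in WT and from 0.847 through 1.71 to 2.79 CPM in WWP2Mut/Mut mice. The groups overlapped, and 8 of 9 WWP2Mut/Mut mice lay above the WT median. On the log2 scale the difference was 0.87 (SE 0.305, unadjusted p = 0.00995, adjusted p = 0.973), and 0.71 without the WT mice 45-1 and 16-1. Cdc20, the activator of the same complex, had 1.09 to 3.64 CPM in WT and 1.5 to 3.32 CPM in WWP2Mut/Mut mice, a log2 difference of 0.56 (unadjusted p = 0.0516), and 0.35 without the WT mice 45-1 and 16-1. The highest Cdc20 value of all mice was again that of the WT mouse 94-2. Bub1b and Bub1, kinases of the spindle checkpoint that restrain the complex, had log2 fold changes of 0.41 and 0.25, with unadjusted p of 0.158 and 0.538. With single mice left out, Bub1b ran from 0.25, without the WWP2Mut/Mut mouse 52-1, to 0.63. Bub1 ran from 0.07, without the WT mouse 45-1, to 0.39.

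The remaining mitotic genes code for structural and motor proteins. Mki67, whose product coats mitotic chromosomes and is the usual marker of cycling cells, had 2.09 through 4.51 to 9.46 CPM in WT and 4.57 through 5.80 to 13.1 CPM in WWP2Mut/Mut mice. All 9 WWP2Mut/Mut mice exceeded the WT median and 3 exceeded every WT mouse, and the log2 difference was 0.58 (SE 0.319, unadjusted p = 0.0829), and 0.24 without the WT mice 45-1 and 16-1. Cenpe, a kinesin that carries chromosomes to the spindle equator, also had all 9 WWP2Mut/Mut mice above the WT median of 0.621 CPM, by a log2 difference of 0.65 (unadjusted p = 0.0614), and 0.27 without those 2 WT mice. Birc5, the survivin subunit of the chromosomal passenger complex, had a log2 fold change of 0.53, and Kif11, the motor that separates the spindle poles, had 0.46, neither with a p below 0.05. With single mice left out, Birc5 ran from 0.30, without the WWP2Mut/Mut mouse 52-1, to 0.80. Kif11 ran from 0.28, without the WT mouse 45-1, to 0.61. Top2a, the topoisomerase that untangles sister chromatids, had 0.32 (95% confidence interval -0.33 to 0.97), and Nusap1, a microtubule-bundling protein, had 0.13 (-0.61 to 0.87). Both were negative without the WT mice 45-1 and 16-1, at -0.08 for Top2a and -0.31 for Nusap1. Cenpa, by far the most abundant, had 26.9 through 33.6 to 41.5 CPM in WT and 24.6 through 34.5 to 51.0 CPM in WWP2Mut/Mut mice, and its log2 fold change of 0.19 was bounded between -0.13 and 0.51. With Cenpa left out, the median of the remaining 17 mitotic genes was 0.53.

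**Figure D2:**
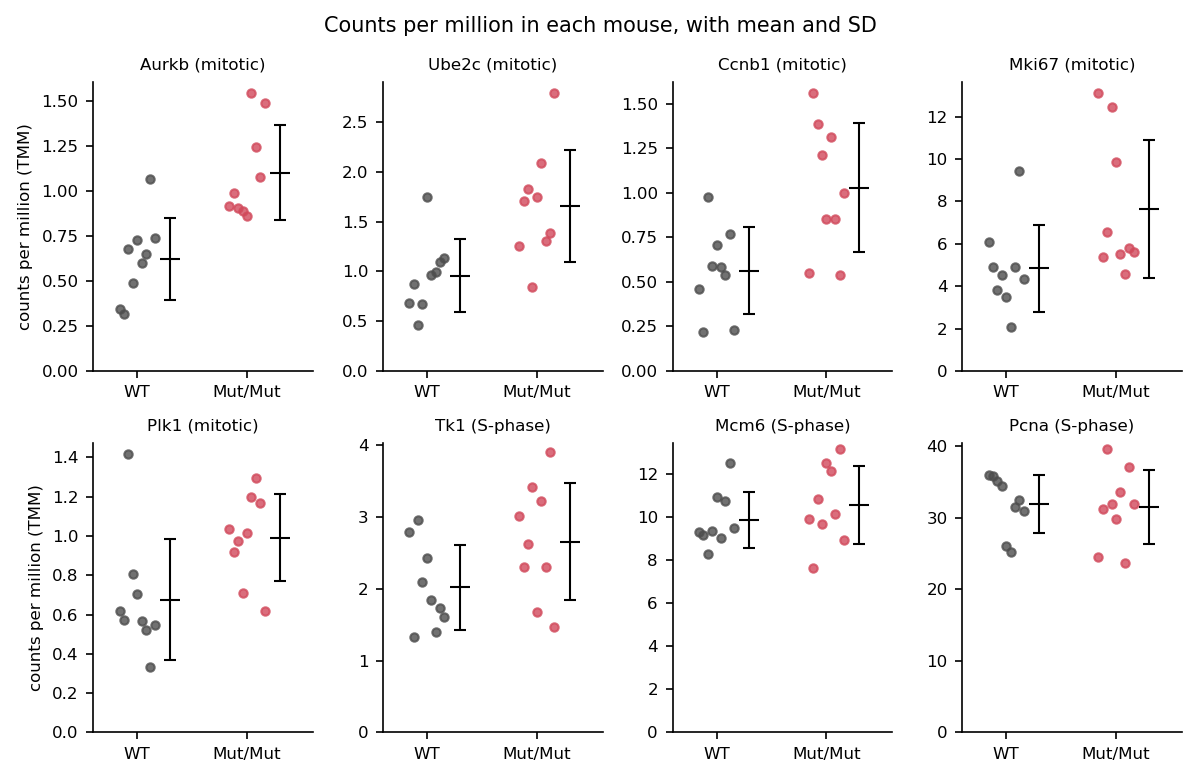
CPM, scaled by TMM, in each WT (grey) and WWP2Mut/Mut (red) mouse for 5 mitotic and 3 S-phase genes, with the mean and SD of 9 mice as a black bar. For Aurkb, 8 of 9 WT mice lie below every WWP2Mut/Mut mouse, while the groups of Mcm6 and Pcna overlap over most of their range.

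The S-phase genes were close to equal in the 2 genotypes where they were measured most precisely. Among the subunits of the MCM helicase, which opens DNA at the fork, Mcm6 had 8.28 through 9.37 to 12.5 CPM in WT and 7.63 through 10.2 to 13.2 CPM in WWP2Mut/Mut mice. Its log2 fold change was 0.03 with a 95% confidence interval from -0.25 to 0.32. The log2 fold changes of the other subunits were 0.02 for Mcm2, -0.02 for Mcm3, 0.09 for Mcm4, 0.14 for Mcm5 and 0.12 for Mcm7. Pcna had 25.2 through 32.4 to 35.9 CPM in WT and 23.7 through 31.9 to 39.7 CPM in WWP2Mut/Mut mice, which overlapped throughout, with a log2 fold change of -0.09 (-0.32 to 0.15). The interval of Rrm1, at -0.11 to 0.29, was the narrowest of the 32 genes. For Mcm2, Mcm3, Mcm4, Mcm6, Mcm7, Pcna, Rrm1 and Tyms the upper bound lay below the mitotic median of 0.50 with all mice. Without the WT mice 45-1 and 16-1 that median was 0.24, and of these bounds, fitted with all mice, only that of Pcna lay below 0.24. The difference between the classes was not tested, since the classes are lists of chosen genes.

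Of the genes that make nucleotides, Tk1, the salvage kinase for thymidine, differed most. Tk1 ran from 1.33 through 1.85 to 2.96 CPM in WT and from 1.46 through 2.63 to 3.90 CPM in WWP2Mut/Mut mice, with 4 WWP2Mut/Mut mice above every WT mouse and a log2 difference of 0.48 (SE 0.243, unadjusted p = 0.0636), and 0.32 without the WT mice 45-1 and 16-1. Rrm2, the small subunit of ribonucleotide reductase, had 0.11 (-0.39 to 0.62), and Tyms, which makes thymidylate, had 0.02 (-0.40 to 0.44). Among the regulators and loading factors, Cdc6, which loads the helicase at origins, had 0.35 (-0.41 to 1.12), E2f1, the transcription factor of the G1 to S transition, had 0.23 (-0.37 to 0.82), and Gins2, a subunit of the active helicase, had 0.03 (-0.54 to 0.60). The intervals of Cdc6, E2f1, Gins2, Rrm2, Tk1 and Mcm5 include the mitotic median of 0.50 as well as 0.

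A level of each class was computed for each mouse as the geometric mean, over the genes of the class, of its CPM relative to that gene's geometric mean over the 18 mice. The mitotic level ran from 0.489 through a median of 0.845 to 1.42 in WT and from 0.787 through 1.16 to 1.79 in WWP2Mut/Mut mice, and was above 1 in 2 of 9 WT and 7 of 9 WWP2Mut/Mut mice. The S-phase level ran from 0.804 through 0.965 to 1.14 in WT and from 0.83 through 1.05 to 1.36 in WWP2Mut/Mut mice, and was above 1 in 3 and 6 mice. Both levels overlapped between the genotypes. With the WT mice 45-1 and 16-1 left out, the lowest and median WT mitotic levels were 0.667 and 0.892 and the lowest and median WT S-phase levels were 0.827 and 0.973. The WT mouse 94-2 had the highest value of its genotype for 14 of the 18 mitotic genes and the WT mouse 45-1 the lowest for 10, while the WWP2Mut/Mut mice 54-1, 52-1 and 62-1 shared the highest values of theirs, with 8, 5 and 5 genes. No member had ranges that were apart between the genotypes, as 0.00403% of all genes had.

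**Figure D3:**
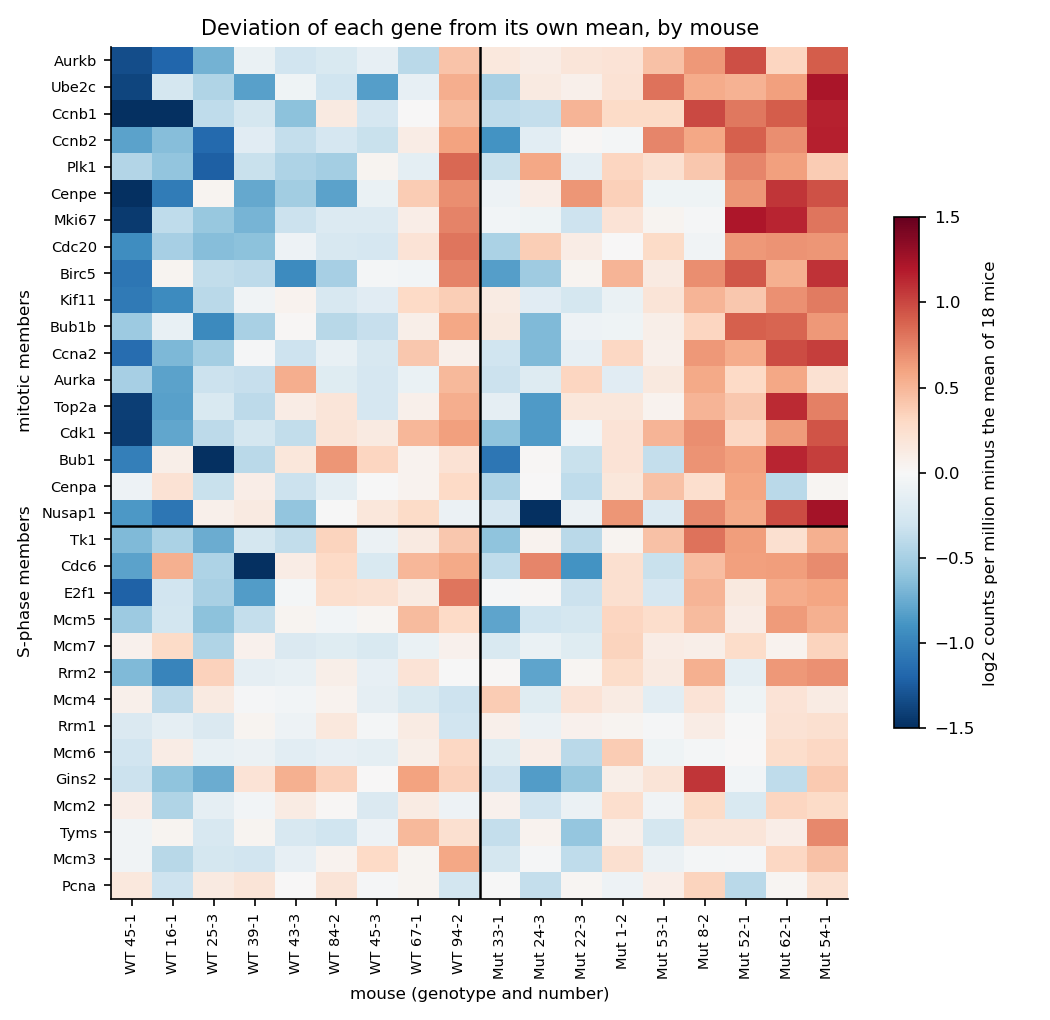
Deviation of each gene's log2 CPM from its mean over 18 mice, with mitotic genes above and S-phase genes below the horizontal line and WT mice left and WWP2Mut/Mut mice right of the vertical line, ordered within a genotype by their mitotic level. The WT mouse 94-2 stands in red for the mitotic genes among the WT mice, and the colors of Mcm7 and Rrm1 stay pale in all mice but the WT mouse 25-3 for Mcm7.

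Each of the 4 sequencing lanes held both genotypes, and the mitotic difference was not the same in all of them. The mean CPM was higher in WWP2Mut/Mut mice for 16 of 18 mitotic genes in lane 1, 18 of 18 in lane 2, 18 of 18 in lane 3 and 9 of 18 in lane 4, where 49.8%, 47.1%, 46.9% and 43.2% of all genes were. The ratio of the mitotic level between the genotypes, WWP2Mut/Mut to WT, was 1.34, 2.42, 1.46 and 0.968 in the same lanes, so the difference did not hold in lane 4. Lane 4 held the WT mouse 94-2, with a mitotic level of 1.42, and lanes 1 and 2 held the liver-rich WT mice 16-1 and 45-1, with 0.651 and 0.489. Without those 2 mice the mitotic ratios of lanes 1 and 2 were 1.04 and 1.90, each against 1 WT mouse. The WT mouse 25-3, with a liver marker sum of 98.2 TPM and a mitotic level of 0.667, was in lane 4. For the S-phase genes the counts were 7, 13, 14 and 4 of 14 and the ratios were 0.981, 1.44, 1.19 and 0.894, with 0.845 and 1.42 in lanes 1 and 2 when the WT mice 16-1 and 45-1 were left out. With 2 or 3 mice per genotype and lane, the differences between lanes were not tested.

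**Figure D4:**
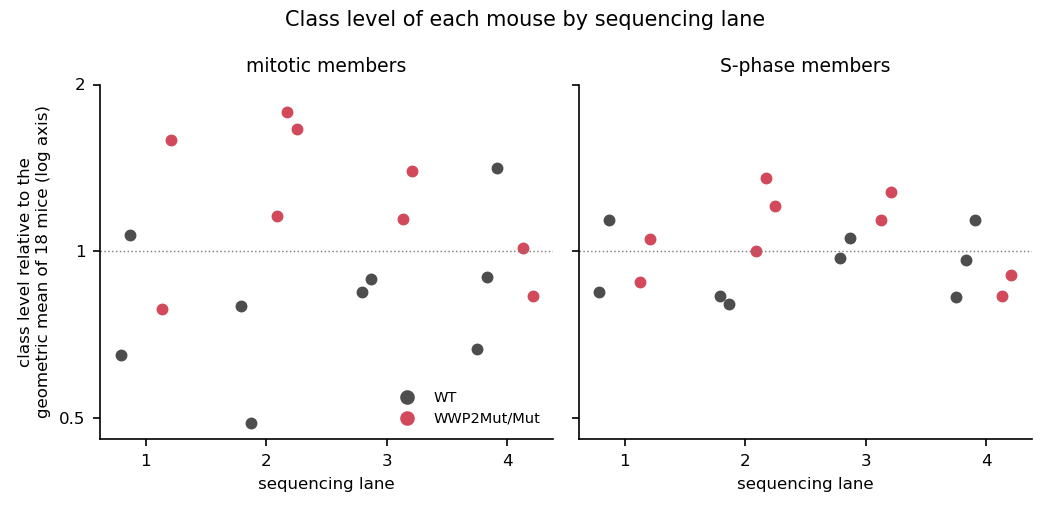
Level of the mitotic (left) and S-phase (right) genes in each WT (grey) and WWP2Mut/Mut (red) mouse, relative to the geometric mean of 18 mice on a log axis, by sequencing lane. In lanes 2 and 3 every red point lies above every grey one in both panels, whereas in lane 4 the highest point is a WT mouse.

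The size of the mitotic difference depended on the 2 WT mice with the most liver transcript, which also had the lowest mitotic levels. Leaving out the lowest WT mice lowers the difference whatever their liver transcript, so the part of liver transcript was not tested. Without the WT mice 45-1 and 16-1, the median log2 fold change was 0.24 for the mitotic genes, with 15 of 18 above 0, and -0.02 for the S-phase genes, with 5 of 14 above 0, where 49.6% of all genes were above 0. With the liver marker sum of each mouse as a covariate the medians were 0.35 and 0.05, with 18 of 18 and 11 of 14 above 0 against 52% of all genes. At an unadjusted p below 0.05 these fits left 2 of 32 members each, where 3.1% of all genes passed without the 2 mice and 5.66% with the covariate. With single mice left out, the number of members at an unadjusted p below 0.05 was 2 without the WT mouse 16-1 or 45-1 or the WWP2Mut/Mut mouse 8-2 or 52-1, 8 without the WT mouse 67-1 or the WWP2Mut/Mut mouse 22-3, 24-3, 33-1 or 62-1, and 10 without the WT mouse 94-2, against 5 with all mice. Of all genes, 3.66% passed with all mice, 2.96% to 4.21% in the fits that left 2 members, 3.47% to 4.61% in those that left 8, and 4.06% without the WT mouse 94-2. The mitotic median ran from 0.32 without the WWP2Mut/Mut mouse 52-1 to 0.63 without the WWP2Mut/Mut mouse 24-3, and was 0.34 without the WT mouse 45-1. The unit mattered as well. On log2(TPM + 1), a scale that compresses differences of genes below 1 TPM, limma gave medians of 0.09 and -0.01, with 16 of 18 mitotic and 6 of 14 S-phase genes above 0 where 26.1% of all genes were. On log2(TPM + 0.1), which compresses low genes less, the medians were 0.26 and -0.02, with 15 of 18 and 6 of 14 above 0 where 26.3% of all genes were. The median of all genes was -0.04 on the first of these scales and -0.11 on the second, so both class medians lay above it on each. Relative to 0, most S-phase genes were negative on both scales, and among the mitotic genes Bub1 and Cenpe were negative on both and Nusap1 on log2(TPM + 0.1).

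Other genes of the cycle came from lists that hold none of the 32. They were measured in the same mice, so they do not repeat the comparison independently. All 20 further mitotic genes had positive differences, with a median log2 fold change of 0.41 (48.1% of all genes were positive). Without the WT mice 45-1 and 16-1 the median was 0.16, 16 of 20 were positive and 0 had an unadjusted p below 0.05 in edgeR. With all mice, 3 had an unadjusted p below 0.05, where 1.09% of all genes were higher and 2.57% lower, namely Cenpf, a kinetochore protein (0.70, unadjusted p = 0.0198), Kif2c, a microtubule depolymerase of the centromere (0.83, unadjusted p = 0.0439), and Ndc80, which ties kinetochores to microtubules (0.63, unadjusted p = 0.0486), and the adjusted p was 1.00 for each in edgeR. Foxm1 and Mybl2, the transcription factors that switch on the mitotic wave, had 0.45 (unadjusted p = 0.228) and 0.11 (unadjusted p = 0.810). The 25 further replication genes had a median of 0.12 with 19 above 0 and 0 at an unadjusted p below 0.05. With the WT mice 45-1 and 16-1 left out their median was 0.10 with 21 of 25 above 0, so the medians of the further mitotic and replication genes, 0.16 and 0.10, then lay close together. Cdt1, the partner of Cdc6 in origin licensing, had 0.22 (unadjusted p = 0.371). The genes that act before the cell commits to division showed no common direction. Of 9 G1 cyclins and kinases 4 were above 0, with a median of -0.04, and Ccnd1, Ccnd2, Ccnd3 and Cdk4 had -0.04, -0.19, 0.10 and 0.04. Of 16 inhibitors and pocket proteins 7 were above 0, with a median of -0.03, and the CIP/KIP inhibitors Cdkn1a, Cdkn1b and Cdkn1c had 0.22, -0.19 and 0.12. None of these 25 genes had an unadjusted p below 0.05 in edgeR, and 1 inhibitor did in DESeq2.

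**Figure D5:**
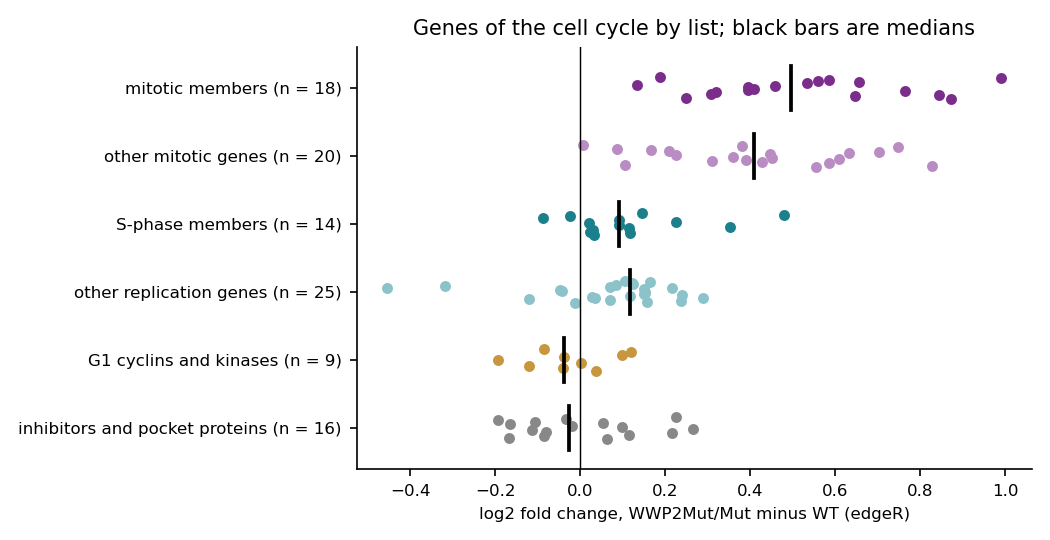
Log2 fold change, WWP2Mut/Mut minus WT, of each gene in 6 cell cycle lists, with the list median as a black bar. The medians of the 2 mitotic lists stand at 0.50 and 0.41, those of the 2 replication lists at 0.09 and 0.12, and those of the G1 and inhibitor lists at -0.04 and -0.03, all with the 18 mice.

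The cell types that could hold dividing cells were read from summed marker levels. Fibroblast markers, 8 genes, had TPM sums of 553 to 1173 in WT and 563 to 881 in WWP2Mut/Mut mice with a median log2 fold change of -0.15. The 8 endothelial and 8 macrophage markers had medians of -0.01 and 0.01. Lymphocyte markers were scarce, with sums of 1.48 to 4.53 TPM in WT and 1.42 to 7.39 TPM in WWP2Mut/Mut mice, and 7 of 8 had positive differences with a median of 0.36. Neutrophil markers had sums of 3.03 to 16.3 and 3.43 to 33.4 TPM, with 5 of 6 positive and a median of 0.57. No marker of these 5 lists had an unadjusted p below 0.05 in edgeR. Of 6 erythroid markers 5 were higher, with a median of 0.19 and none at an unadjusted p below 0.05. Of 8 markers of activated fibroblasts 7 were lower, with a median of -0.25, among them Thbs4 (-0.75, unadjusted p = 0.00395) and Comp (-0.97, unadjusted p = 0.0098). Of 8 smooth muscle and pericyte markers 4 were higher, with a median of 0.01, among them Tagln (0.48, unadjusted p = 0.0324). Of 6 adipocyte markers 5 were lower, with a list median of -0.94, and all 5 had means below 1 TPM in both genotypes. Among them was Plin1 (-1.63, unadjusted p = 0.0332 by edgeR). The other marker, Fabp4, had a log2 fold change of 0.14 and means of 621 TPM in WT and 625 TPM in WWP2Mut/Mut mice. Fabp4 made up nearly all of the list's TPM sums, 469 to 856 in WT and 464 to 784 in WWP2Mut/Mut mice. The part of the marked cell types in the mitotic difference was not tested. The highest lymphocyte sum of each genotype, 4.53 and 7.39 TPM, was in the WT mouse 94-2 and the WWP2Mut/Mut mouse 52-1, with mitotic levels of 1.42 and 1.59. The mice with the highest mitotic levels of all, the WWP2Mut/Mut mice 54-1 (1.79) and 62-1 (1.66), had lymphocyte sums of 1.8 and 1.74 TPM, below the WWP2Mut/Mut median of 1.94, and the highest fibroblast sums of their genotype, 881 and 854 TPM. Among WT mice the highest fibroblast sum, 1173 TPM, was in the mouse 45-1, which had the lowest mitotic level. The WT mouse 94-2 and the WWP2Mut/Mut mouse 52-1 also had the highest erythroid sums of their genotypes, 3871 and 4121 TPM, and the highest endothelial sums, 370 and 365 TPM. The highest neutrophil sum, 33.4 TPM, was in the WWP2Mut/Mut mouse 22-3, with a mitotic level of 1.01.

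Mitotic genes varied together from mouse to mouse more than S-phase genes did. Pearson r between genes was computed on log2 CPM with genotype means removed, over the 18 mice, which share lanes and depth. Its median was 0.65 over 153 mitotic pairs, 0.41 over 91 S-phase pairs and 0.46 over 252 pairs across the classes. Cenpa stood apart from its class, with a median r of 0.29 to the other mitotic genes, and Mcm4 and Pcna stood apart from theirs, with -0.21 and 0.04 to the other S-phase genes. By contrast Mcm5, Tk1 and E2f1 followed the mitotic genes, with median r of 0.69, 0.69 and 0.66. The relations tested next kept the genotype means. Among 6 relations tested on log2(TPM + 1) with 100000 permutations, Mki67 with Top2a had r = 0.82 (two-sided permutation test, p = 5e-05, adjusted p = 0.0003; rho = 0.79, adjusted p = 0.00138), and r = 0.79 without the 2 mice farthest from the Mki67 median. Within the genotypes it was 0.91 in WT and 0.80 in WWP2Mut/Mut mice. Mcm5 with Mcm6 had r = 0.68 (permutation test, adjusted p = 0.00579; rho = 0.66, adjusted p = 0.00654; r = 0.57 without the 2 farthest mice), and Mki67 with Mcm5 had r = 0.61 (permutation test, adjusted p = 0.0115; rho = 0.67, adjusted p = 0.00654; r = 0.63 without them). Both of these relations rested in part on the WWP2Mut/Mut mouse 62-1, without which r was 0.57 and 0.45 and the adjusted p of the permutation test was 0.0519 and 0.104. When the WT mice 45-1 and 16-1 were left out, r was 0.78 for Mki67 with Top2a, 0.63 for Mcm5 with Mcm6 and 0.54 for Mki67 with Mcm5, with adjusted p of 0.0018, 0.0315 and 0.0598 (permutation test).

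Mki67 was also set against a marker of leukocytes and against the targeted gene. With Ptprc, the leukocyte antigen CD45, r was 0.40 (permutation test, adjusted p = 0.156) and rho was 0.53 (permutation test, adjusted p = 0.0405). The r was 0.24 without the 2 mice farthest from the Mki67 median. Within the genotypes it was 0.65 in WT and 0.52 in WWP2Mut/Mut mice. It was 0.32 with the WT mice 45-1 and 16-1 left out. With genotype means removed it was 0.56 (permutation test, adjusted p = 0.0233), and with lane, RNA concentration and genotype removed it was 0.72 (adjusted p = 0.0018). With Wwp2, r was -0.27 over all mice (permutation test, adjusted p = 0.336; rho = -0.21) and -0.24 without the 2 farthest mice, and it was -0.15 with the WT mice 45-1 and 16-1 left out. Within WT mice it was -0.03 and within WWP2Mut/Mut mice 0.63. The sign turned with genotype means removed (r = 0.45, permutation test, adjusted p = 0.0756) and with lane and RNA concentration removed as well (r = 0.49, adjusted p = 0.043). Mcm5 with the gene body coverage of the library, a measure of RNA and library quality given by the authors, had r = -0.22 (permutation test, adjusted p = 0.377; rho = -0.17) and -0.29 without the 2 farthest mice, and -0.05 with the WT mice 45-1 and 16-1 left out.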

How the data were processed

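RNA-seq of left ventricles from 9 WT and 9 WWP2Mut/Mut mice was analyzed, with groups taken from the genotype in the sample labels. Each library is a separate mouse, and every pair of mice of a genotype differed beyond sampling noise (72 pairs, chi-square per gene 15.0 to 272).

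The authors used STAR 2.5.2b to align directional, poly(A)-selected reads to mouse genome m38, quantified Ensembl 89 genes with RSEM 1.2.31 and left out rRNA and mitochondrial genes. The authors deposited expected counts per gene and mouse (5.11% of the values were not whole) and TPM, which the authors scaled per mouse and which sum to less than 1000000 here. A further deposited table gives lane, RNA concentration, absorbance ratios and gene body coverage as a fraction.

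Ensembl IDs were matched to symbols through a reference table (99.6% of 51435), and gene coordinates are from GENCODE M21. Counts were rounded, and the 24804 genes with a total above 1 were tested with edgeR 4.0.16 (TMM, glmQLFit, glmQLFTest; R 4.3.3) with lane and centred RNA concentration as covariates and Benjamini-Hochberg adjustment over all genes, called at an FDR below 0.05. DESeq2 1.42.0, limma 3.58.1, other size factors, filters, covariates, pseudocounts and left-out mice were alternatives. Among them, 3 were added after the data were seen, namely a replaced RNA concentration for the WT mouse 43-3, which is listed at 1.68 where the others are 88.6 to 320.9, a covariate for liver transcripts, and leaving out mice with a liver marker sum above 100 TPM. Correlations used Python 3.11.15, numpy 2.4.6, scipy 1.17.1 and pandas 2.3.3 with 100000 permutations (20000 for their alternatives). The code was tested on simulated data.

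Named genes are the 32 members, 10 further regulators, every further cell cycle gene with an unadjusted p below 0.05, the 5 genes most like each class (1 of them is not reported here), Wwp2 and marker lists as TPM sums. The members and lists were chosen with earlier results of these data known. Fold changes are WWP2Mut/Mut relative to WT, and normalized counts are CPM with TMM factors, without covariates removed.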

Additional observations from a re-analysis of the deposited data

Results flagged for a closer look

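Within each genotype, the highest and the lowest of the 9 TPM values of each member were compared with the nearest value, and 2 of 64 such groups held a mouse set apart by more than Dixon's 95% critical value for 9 samples. Chance marks about 1 in 20 groups. Both concern the WT mouse 94-2. Top2a had 1.79 TPM in that mouse, where the next WT mouse had 1.04 TPM. Mcm3 had 5.75 TPM there, where the next WT mouse had 2.98 TPM. In CPM the same mouse was again the highest WT mouse, with 4.67 for Top2a and 9.99 for Mcm3, against medians of 2.74 and 6.45.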

How the results depend on the processing

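The count of genes called was 1, 4 with DESeq2, and 1 to 2 with single mice left out. The number of members at an unadjusted p below 0.05 was 5 (3.66% of all genes passed). It was 12 with no covariates (4.6% of all genes), 8 with lane alone (2.75%), 2 in each limma fit (log2(TPM + 1), log2(TPM + 0.1) and TPM scaled to 1000000, with 4.66%, 4.79% and 3.54% of all genes), 2 with the liver marker sum added, 2 with the liver-rich mice left out, and 2 to 10 with single mice left out. The causes were not tested. Of the fold changes of single mitotic genes, 242 of the values under other settings kept their direction and 10 reversed, against 157 and 39 for S-phase genes. In limma on log2(TPM + 1), log2(TPM + 0.1) and scaled TPM in turn, the log2 differences were -0.030, -0.13 and -0.035 for Bub1, -0.040, -0.21 and -0.049 for Cenpe, -0.076, -0.12 and -0.087 for Mcm2, 0.057, 0.081 and 0.056 for Mcm3, -0.044, -0.066 and -0.051 for Mcm4, -0.0051, -0.0074 and -0.0094 for Mcm5, -0.093, -0.13 and -0.10 for Mcm6, -0.13, -0.17 and -0.14 for Mcm7, and -0.021, -0.0258 and -0.0278 for Tyms. Rrm2 had -0.005 and -0.0074 on the first and last of these scales, and Nusap1 and Gins2 had -0.035 and -0.079 on log2(TPM + 0.1). With no covariates and with lane alone, Mcm3 had 0.032 and 0.035 and Gins2 had -0.045 and -0.13. With gene body coverage added, Mcm6 had -0.039 and Tyms -0.063. With the concentration of the WT mouse 43-3 replaced, Mcm3 had 0.0018, and with the liver marker sum added Gins2 had -0.0077. With the liver-rich mice left out, values were -0.075 for Top2a, -0.0865 for Cdk1, -0.31 for Nusap1, -0.057 for Mcm2, -0.034 for Mcm5, -0.0086 for Mcm6, -0.20 for Rrm2, -0.046 for Tyms, -0.012 for E2f1 and -0.17 for Gins2. With single mice left out, the ranges that crossed 0 were -0.083 to 0.49 for Nusap1, -0.053 to 0.069 for Mcm2, -0.093 to 0.053 for Mcm3, -0.033 to 0.098 for Mcm6, -0.035 to 0.33 for Rrm2, -0.074 to 0.12 for Tyms and -0.12 to 0.24 for Gins2. The r of Mki67 with Wwp2 was 0.45 with genotype means removed and 0.49 with lane and RNA concentration removed too, and that with Ptprc 0.56 and 0.72. With single mice left out, r was 0.57 to 0.74 for Mcm5 with Mcm6 and 0.45 to 0.74 for Mki67 with Mcm5. No paired analysis was possible because the mouse numbers are not shared between the genotypes. Low counts limit the mitotic genes most, of which 11 of 18 had a median below 50 counts per mouse.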

Other observations

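Genes outside the cell cycle lists were ranked by the Pearson r of their log2(TPM + 1) with the mean of each class, over 18 mice and 12345 genes, after genotype means were removed. Most like the mitotic genes were Pimreg (r = 0.94) and Racgap1 (0.88), then Ift122 (0.83), Tnfaip8l1 (0.80, log2 fold change 0.09) and Mfap5 (0.79). The genotype difference of Pimreg was 0.83 (edgeR, unadjusted p = 0.105) and that of Racgap1, a regulator of cytokinesis, was 0.44 (unadjusted p = 0.111), while Ift122 and Mfap5 had -0.05 and -0.05. Most like the S-phase genes were Prcp (0.88), Tmem119 (0.85), Dnase1l1 (0.84) and Plp2 (0.83), whose differences ran from 0.02 for Tmem119 to 0.22 for Prcp. These r describe these mice and carry no test.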
